A study of Mus musculus with 6 samples.

Results

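The axon guidance and ephrin genes are the semaphorins and their plexin and neuropilin receptors, the Slits and their Robo receptors, the netrins and their Unc5 receptors, and the ephrins and their Eph receptors. They were taken by symbol from the gene table of regenerating mouse corneal epithelium, and 65 of its 14968 protein-coding genes matched, 34 ligands and 31 receptors. Of these 65 genes, 39 had a mean of at least 0.5 FPKM in 1 or both groups and were tested, and 26 lay below that floor. FPKM counts the fragments of a gene relative to the length of its transcript and to all mapped fragments.

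The comparison is between 3 diabetic and 3 control libraries. The diabetic libraries came from male C57BL/6 mice in a model of type 1 diabetes, made diabetic with streptozotocin (STZ), which kills the beta cells that secrete insulin, injected at 50 mg/kg on 5 days, and the tissue of mice with high blood glucose was collected 16 weeks later. The control libraries came from normal mice of the same strain and sex, and all mice entered the study at 6 to 8 weeks of age. In both groups the central corneal epithelium of 1 eye had been scraped off, and 24 h later the limbal epithelium and some of the healing centre were harvested and pooled from 4 mice per library. All values are therefore from healing tissue, the replicates are pools, and a p-value measures the spread between these pools. A lower value in such bulk tissue can come from fewer cells of a type or from less RNA per cell, and these cannot be told apart.

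Axon guidance proteins are ligands that attract or repel growing axons and moving cells. Semaphorins bind plexins, with neuropilins as co-receptors for the secreted class, Slits bind Robo receptors, and netrins bind receptors that include the repulsive Unc5 proteins. Ephrins stay on the cell surface, A-type ephrins through a lipid anchor and B-type ephrins through a membrane span, and they signal to Eph receptor tyrosine kinases on a touching cell, which can send signals back through the ephrin. The cornea is densely supplied with sensory nerve endings that run between its epithelial cells, and the epithelial cells themselves use Eph and plexin receptors at their contacts and during migration.

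The comparison asks which of these genes differed between diabetic and control epithelium 24 h after wounding. One ephrin ligand, *Efna3*, was lower in the diabetic epithelium, at 2.42 ± 0.0857 FPKM against 5.11 ± 0.777 FPKM in the control epithelium (SD, n = 3 each). The netrin ligand *Ntn1* and the Slit receptor *Robo1* had lower values and the semaphorin *Sema6d* had higher values in the diabetic libraries, without overlap between the groups. *Robo1* was tested only because its control mean passed the floor. Groups without overlap were found in 17.9% of the 39 genes, beside 17.6% of all genes tested. The most abundant receptors, *Plxnb2* and *Epha2*, differed by less than the spread between libraries. None of the 39 genes passed an adjusted p under 0.05 in limma, a linear model fitted over all 12149 genes past the floor on log2(FPKM + 1). That threshold was passed by 8 genes in all, 0.0658% of those tested, and in the same fit 4 of the 39 (10.3%) reached an unadjusted p under 0.05, beside 11.5% of all genes tested.

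For *Efna3*, *Robo1* and *Sema6d*, 3 of the 4 genes at an unadjusted p under 0.05, the 250 bases before the transcription start are shown, because the ephrin gene EFNA3 is induced by low oxygen in human cells and the core letters bound by hypoxia-inducible factors (HIF) can be looked for there. The sequences are from RefSeq on GRCm38.p6, read 5′ to 3′ on the strand of the gene, and capitals mark every ACGTG or GCGTG on either strand. The window of *Efna3* is chr3:89322940-89323189 on the minus strand, that of *Robo1* is chr16:72662899-72663148 on the plus strand and that of *Sema6d* is chr2:124089719-124089968 on the plus strand. Each window ends at the RefSeq start nearest to the start of the gene in the deposited table, which for *Efna3* lies 26 bases inside that gene.
Efna3: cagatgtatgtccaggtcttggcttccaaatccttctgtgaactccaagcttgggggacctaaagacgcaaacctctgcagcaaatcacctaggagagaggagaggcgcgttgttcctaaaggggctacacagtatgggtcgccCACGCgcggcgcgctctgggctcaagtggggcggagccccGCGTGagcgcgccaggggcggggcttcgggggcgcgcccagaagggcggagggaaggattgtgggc
Robo1: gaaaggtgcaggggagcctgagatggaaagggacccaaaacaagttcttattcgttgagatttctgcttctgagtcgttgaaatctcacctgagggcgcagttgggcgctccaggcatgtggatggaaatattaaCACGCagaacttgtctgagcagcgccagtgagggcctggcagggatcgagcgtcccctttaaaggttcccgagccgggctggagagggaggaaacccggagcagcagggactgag
Sema6d: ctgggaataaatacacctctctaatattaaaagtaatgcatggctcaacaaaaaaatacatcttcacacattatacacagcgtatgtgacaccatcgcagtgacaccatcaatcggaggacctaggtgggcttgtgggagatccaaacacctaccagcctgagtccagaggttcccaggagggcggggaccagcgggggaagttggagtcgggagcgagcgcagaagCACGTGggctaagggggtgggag

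The *Efna3* window held 2 HIF core matches and had a GC content of 63.6%, the *Robo1* window held 1 match at 56.0% GC, and the *Sema6d* window held 2 matches at 52.4% GC. The 2 matches of *Sema6d* overlap, since they are both strands of 1 palindromic CACGTG, which also fits the E-box of other basic helix-loop-helix factors. The neighbouring ephrin genes *Efna1* and *Efna4* had 0 matches each in their windows of the same length. A HIF core was present in 38.6% of 32851 promoter windows of that length, in 44.6% of the 56 axon guidance and ephrin genes with a window in the table, and in 57.1% of the 35 of these that were past the floor. The GC content of those 35 windows had a median of 64.8%, against 52.4% over all windows, and a GC box (GGGCGG on either strand) was in 80.0% of the 35 against 32.7% of all. A TATA box (TATAAA on either strand) was found in none of the *Efna3*, *Robo1*, *Sema6d*, *Efna1* and *Efna4* windows, and it was found in 12.4% of all windows. Matches of 5 letters are frequent, and these are descriptions of the letters only.

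Most of the family was present at low to moderate levels. Of the 39 genes past the floor, 8 had a mean of at least 10 FPKM over the 6 libraries, 18 lay between 2 and 10 FPKM and 13 lay under 2 FPKM. The highest mean was that of *Plxnb2*, at 35.2 FPKM, above 91.2% of the genes in the table. The summed FPKM of all 65 genes was 264, 263 and 237 in diabetic replicates 1, 2 and 3, against 282, 277 and 245 in control replicates 1, 2 and 3, so the groups overlapped. The FPKM of all genes in a library summed to 308757 in diabetic replicate 3, the lowest, and 331926 in control replicate 3, the highest, and no value above 0 was identical in any pair of libraries.

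**Figure D1:**
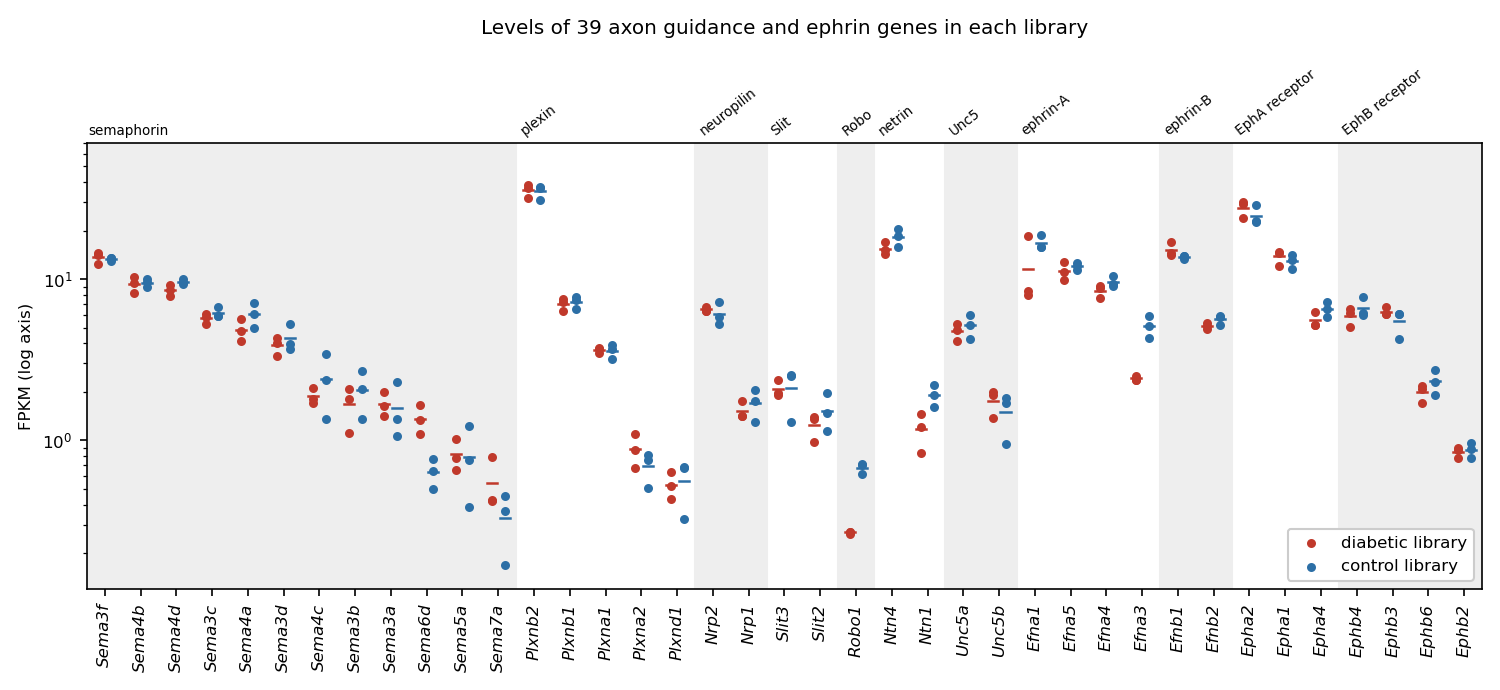
FPKM on a log axis of the 39 axon guidance and ephrin genes past the floor, by family, with 1 point per library (diabetic in red on the left, control in blue on the right of each gene) and a short line at the mean of each group. *Plxnb2* and *Epha2* stand highest, most pairs of groups overlap, and *Efna3*, *Robo1*, *Ntn1* and *Sema6d* show the widest gaps between the groups.

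Ephrins are described first, since the lowest p-value of the 39 genes was in this family. All 4 A-type ephrins past the floor had a lower mean in the diabetic epithelium, with a median log2 fold change of -0.37. Their summed FPKM (including *Efna2*, below the floor) was 42.7, 28.5 and 30.7 in diabetic replicates 1, 2 and 3, against 43.9, 42.9 and 44.5 in control replicates 1, 2 and 3. Every diabetic library lay below every control library, diabetic replicate 1 by little.

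*Efna3* encodes ephrin-A3, a ligand of EphA receptors best known from axon targeting and from astrocytes. Its gene (ENSMUSG00000028039.11) lies on chromosome 3, from 89313899 to 89322965 on the minus strand of GRCm38. Its level was 2.52, 2.37 and 2.38 FPKM in diabetic replicates 1, 2 and 3, against 5.89, 5.13 and 4.33 FPKM in control replicates 1, 2 and 3. The diabetic libraries were nearly alike, and the lowest control library was well above them. The log2 fold change was -0.83 (SE 0.117, 95% interval -1.10 to -0.56), and limma gave an unadjusted p of 0.000131 and an adjusted p = 0.0760. *Efna3* was the only gene of the 39 past the thresholds of the study (at least 1.5-fold at an unadjusted p under 0.05). These thresholds were applied here to the limma fit, while the study used ballgown. The share past them was 2.56% of the 39 genes, beside 2.49% of all genes tested (1.26% for lower genes). *Efna3* stayed past both thresholds with each of the 6 libraries left out in turn, at log2 fold changes of -0.92 to -0.74. An antisense gene, Gm15998, overlaps *Efna3* in the GENCODE M21 annotation, and whether the authors counted by strand is not given in the sources used here.

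*Efna1* encodes ephrin-A1, a high-affinity ligand of EphA2 that restrains the migration of human corneal epithelial cells. Its level was 18.5, 8.43 and 8.03 FPKM in diabetic replicates 1, 2 and 3, against 15.9, 15.8 and 18.8 FPKM in control replicates 1, 2 and 3. Diabetic replicates 2 and 3 were low and diabetic replicate 1 was as high as the controls, so the groups overlapped. The log2 fold change was -0.59 (SE 0.280, 95% interval -1.24 to 0.06), with an adjusted p = 0.481 in limma. Without diabetic replicate 1 it was -0.94 with an adjusted p = 0.0375, and *Efna1* was then the only gene of the 38 tested past the adjusted threshold, while 66 genes of the whole table passed it, against 8 with all libraries. The study's thresholds were passed by 3 genes without this library (*Efna3*, *Efna1* and *Sema6d*) against 1 with it, and by 469 against 302 genes of the whole table.

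The other A-type ephrins stood closer together. *Efna5*, which encodes a repellent of retinal axons, was at 12.8, 9.86 and 11.1 FPKM in the diabetic libraries, against 12.6, 11.5 and 12.2 FPKM in the control libraries (log2 fold change -0.10, adjusted p = 0.784 in limma). *Efna4* was at 8.78, 7.63 and 9.09 FPKM in the diabetic libraries, against 9.34, 10.4 and 9.10 FPKM in the control libraries (log2 fold change -0.16, adjusted p = 0.601 in limma). The values of *Efna4* did not overlap, but by a margin of about 0.01 FPKM. *Efna2* lay below the floor in every library.

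*Efna1*, *Efna3* and *Efna4* are neighbours on chromosome 3, between 89271733 and 89338028, a span of 66.3 kb with all 3 on the minus strand. Within that span or 100 kb of it the table held 19 other genes, of which 17 were past the floor, 4 with a higher and 13 with a lower mean in the diabetic epithelium. At an unadjusted p under 0.05 in limma were 2 of these 17 genes, beside 11.5% of all genes tested. *Scamp3*, a membrane-trafficking gene, had a log2 fold change of -0.32, and *Thbs3*, a thrombospondin, had one of 0.33. Every control value of *Thbs3* (0.304, 0.402 and 0.299 FPKM) lay below the floor, so *Thbs3* was kept through its diabetic mean alone. It therefore had to be higher there, and its p is not support of the same kind as that of *Scamp3*. Lower means were thus also found in genes beside the ephrins, and 61.0% of all genes tested had a lower mean in the diabetic libraries.

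Of the 2 B-type ephrins past the floor, 1 had a higher and 1 a lower mean in the diabetic epithelium. *Efnb1*, which encodes a ligand for EphB receptors with a role in boundaries between cell groups, was at 14.5, 16.9 and 14.2 FPKM in the diabetic libraries, against 14.01, 13.9 and 13.3 FPKM in the control libraries. The diabetic values were higher without overlap, and the interval of the difference included 0 (log2 fold change 0.13, 95% interval -0.11 to 0.38, adjusted p = 0.651 in limma). *Efnb2*, a ligand with a known role in blood vessel growth, averaged 5.13 ± 0.242 FPKM in the diabetic and 5.63 ± 0.381 FPKM in the control epithelium (SD, n = 3 each), and *Efnb3* lay below the floor.

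**Figure D2:**
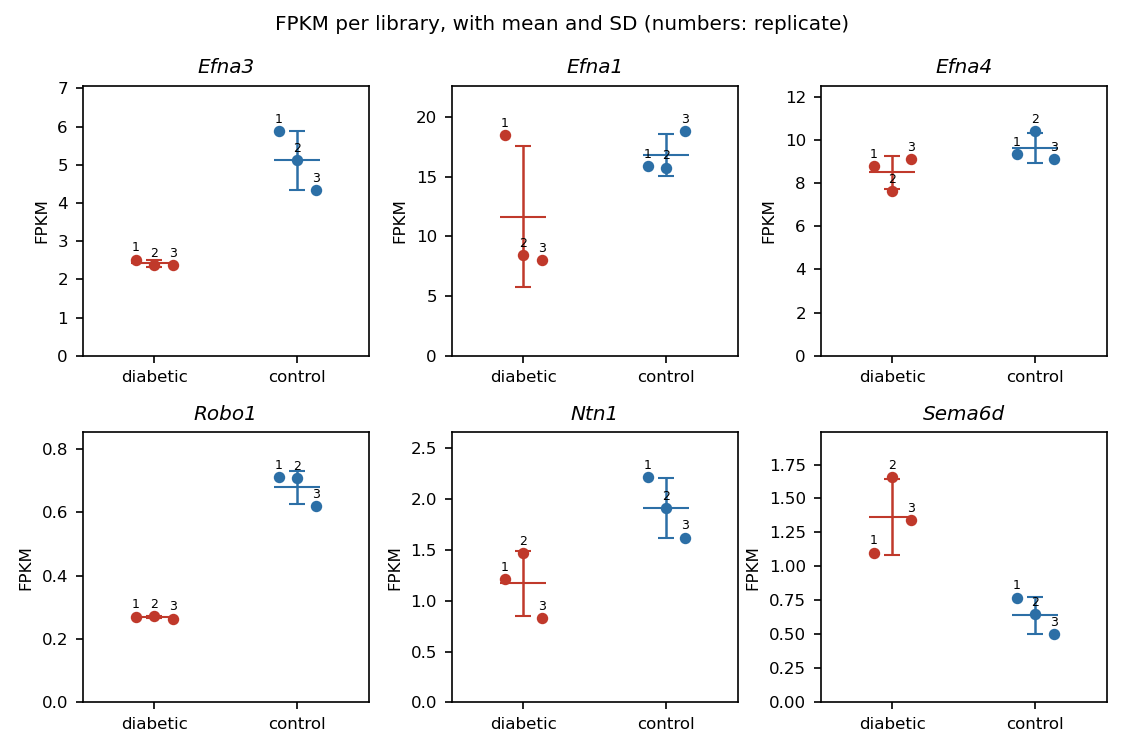
FPKM of *Efna3*, *Efna1*, *Efna4*, *Robo1*, *Ntn1* and *Sema6d* in each library (points, numbered by replicate; diabetic left in red, control right in blue), with the mean and SD of each group as bars, on linear axes from 0. Diabetic replicate 1 stands apart for *Efna1*, at 18.5 FPKM against 8.43 and 8.03 FPKM in the other diabetic libraries, and the other 5 genes show groups that do not overlap.

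None of the 7 Eph receptors past the floor reached an unadjusted p under 0.05 in limma. *Epha2*, the receptor tyrosine kinase of epithelial cells that binds ephrin-A1, was at 29.9, 29.3 and 23.97 FPKM in the diabetic libraries, against 22.6, 28.6 and 22.9 FPKM in the control libraries. These groups overlapped, with a log2 fold change of 0.16 (95% interval -0.15 to 0.47, adjusted p = 0.677 in limma). *Epha1*, another epithelial Eph receptor, averaged 13.8 ± 1.497 FPKM in the diabetic and 12.99 ± 1.32 FPKM in the control epithelium (SD, n = 3 each). *Epha4*, a receptor that binds both classes of ephrin, was at 5.22, 6.22 and 5.20 FPKM in the diabetic libraries, against 7.23, 6.52 and 5.86 FPKM in the control libraries. Its log2 fold change was -0.20 (95% interval -0.47 to 0.07, adjusted p = 0.546 in limma). The sum of the EphA receptors was 47.3, 50.4 and 43.7 FPKM in the diabetic libraries, against 44.1, 48.4 and 40.4 FPKM in the control libraries, which overlapped. *Epha7* and *Epha3* lay below the floor, and *Epha5*, *Epha6* and *Epha10* were listed at 0 in every library.

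Among the EphB receptors, *Ephb3* and *Ephb4* were the most abundant. *Ephb3*, which positions epithelial cells in the gut, was at 6.12, 6.68 and 6.05 FPKM in the diabetic libraries, against 6.08, 6.08 and 4.28 FPKM in the control libraries (log2 fold change 0.18, adjusted p = 0.644 in limma). *Ephb4*, the receptor for ephrin-B2, was at 6.498, 5.05 and 6.21 FPKM in the diabetic libraries, against 7.80, 6.01 and 6.17 FPKM in the control libraries (log2 fold change -0.15, adjusted p = 0.710 in limma). Both sets of values overlapped between the groups. *Ephb6*, whose kinase domain is inactive, averaged 1.99 ± 0.246 FPKM in the diabetic and 2.32 ± 0.398 FPKM in the control epithelium, and *Ephb2* averaged 0.848 ± 0.0621 FPKM in the diabetic and 0.875 ± 0.0964 FPKM in the control epithelium (SD, n = 3 each). *Ephb1* lay below the floor.

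Netrins were the other ligand family in which both genes past the floor had a lower mean in the diabetic epithelium. *Ntn1* encodes netrin-1, the classical guidance cue for commissural axons. The gene (ENSMUSG00000020902.12) lies on chromosome 11, from 68209364 to 68400823 on the minus strand, and its level was 1.21, 1.47 and 0.831 FPKM in diabetic replicates 1, 2 and 3, against 2.21, 1.91 and 1.62 FPKM in control replicates 1, 2 and 3. The highest diabetic library stayed below the lowest control library. The log2 fold change was -0.43 (SE 0.140, 95% interval -0.76 to -0.10), with an unadjusted p of 0.0164 and an adjusted p = 0.326 in limma. The unadjusted p was 0.0514 in limma without diabetic replicate 3 and 0.0578 without control replicate 1. A microRNA gene on the opposite strand (Mir6406) and a sense intronic gene (Gm12305) overlap *Ntn1*.

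*Ntn4* encodes netrin-4, a netrin of basement membranes that binds laminin. It was the most abundant of the family, at 15.1, 16.9 and 14.3 FPKM in the diabetic libraries, against 20.5, 18.6 and 15.8 FPKM in the control libraries. The ranges overlapped, and the log2 fold change was -0.23 (95% interval -0.52 to 0.06, adjusted p = 0.526 in limma). *Ntn5* was listed at 0 in every library. Of the receptors, *Unc5a* was at 4.85, 4.14 and 5.26 FPKM in the diabetic libraries, against 6.02, 5.22 and 4.26 FPKM in the control libraries (log2 fold change -0.10). *Unc5b*, also a receptor in blood vessels, was at 1.38, 1.90 and 1.998 FPKM in the diabetic libraries, against 1.70, 1.82 and 0.947 FPKM in the control libraries (log2 fold change 0.16). Neither Unc5 gene differed beyond its spread, with adjusted p-values of 0.825 for *Unc5a* and 0.750 for *Unc5b* in limma, and the direction turned without control replicate 1 for *Unc5a* and without control replicate 3 for *Unc5b*. *Unc5c* lay below the floor and *Unc5d* was listed at 0.

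*Robo1*, a receptor through which Slits repel axons and migrating cells, was the only Robo gene past the floor, and it was kept through its control mean alone. Its gene (ENSMUSG00000022883.10) lies on chromosome 16, from 72663149 to 73046095 on the plus strand, and its level was 0.271, 0.272 and 0.265 FPKM in diabetic replicates 1, 2 and 3, against 0.710, 0.708 and 0.620 FPKM in control replicates 1, 2 and 3. The values were low but close to each other within each group, and the groups were apart. The ratio of the means was 0.396, while the log2 fold change on the log2(FPKM + 1) scale, which understates a change at such levels, was -0.40 (SE 0.0906, 95% interval -0.61 to -0.19). Its unadjusted p was 0.0024 and its adjusted p = 0.187 in limma. Since a gene kept through 1 group had to be higher there, this p is not support of the same kind as for the other genes, and *Robo1* was not tested with a floor of 1 FPKM. *Robo2* and *Robo4* lay below the floor.

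The Slit ligands of *Robo1* showed no such separation. *Slit2* was at 1.36, 1.40 and 0.977 FPKM in the diabetic libraries, against 1.98, 1.47 and 1.14 FPKM in the control libraries (log2 fold change -0.16, adjusted p = 0.705 in limma). *Slit3* was at 1.91, 2.37 and 1.96 FPKM in the diabetic libraries, against 2.56, 2.50 and 1.305 FPKM in the control libraries (log2 fold change 0.01, adjusted p = 0.994 in limma). In both the control libraries spread more widely than the diabetic ones. *Slit1* lay below the floor.

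Semaphorins form the largest family here, with 20 genes, of which 12 were past the floor, 5 with a higher and 7 with a lower mean in the diabetic epithelium. *Sema6d*, a transmembrane semaphorin that binds plexin-A1, was the 1 gene of the 39 with a higher value at an unadjusted p under 0.05. The gene (ENSMUSG00000027200.17) lies on chromosome 2, from 124089969 to 124667770 on the plus strand, and its level was 1.10, 1.65 and 1.34 FPKM in diabetic replicates 1, 2 and 3, against 0.771, 0.650 and 0.502 FPKM in control replicates 1, 2 and 3. Each diabetic library was above each control library, and the ratio of the means was 2.13. The log2 fold change was 0.52 (SE 0.123, 95% interval 0.24 to 0.81), with an unadjusted p of 0.0031 and an adjusted p = 0.200 in limma. The fold change lay under 1.5 on the log2(FPKM + 1) scale, so *Sema6d* did not pass the thresholds of the study with this pseudocount. With 0.1 or 0.5 FPKM added in place of 1 it passed them. Noncoding genes of the lincRNA class overlap *Sema6d* on the opposite strand.

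*Sema3f*, a secreted semaphorin that signals through neuropilin-2, was the most abundant semaphorin. Its level was 14.1, 14.5 and 12.4 FPKM in the diabetic libraries, against 13.6, 13.5 and 12.9 FPKM in the control libraries (log2 fold change 0.03, 95% interval -0.20 to 0.26, adjusted p = 0.935 in limma). *Sema4d*, also known as CD100 and expressed by lymphocytes as well as epithelia, was at 8.56, 9.23 and 7.91 FPKM in the diabetic libraries, against 9.31, 10.05 and 9.58 FPKM in the control libraries. Its groups did not overlap, and the interval of the difference included 0 (log2 fold change -0.16, 95% interval -0.39 to 0.07, adjusted p = 0.584 in limma). *Sema4b* averaged 9.33 ± 1.01 FPKM in the diabetic and 9.52 ± 0.515 FPKM in the control epithelium (SD, n = 3 each). *Sema3c* averaged 5.73 ± 0.446 FPKM in the diabetic and 6.20 ± 0.473 FPKM in the control epithelium, and *Sema4a*, which also acts on T cells, averaged 4.85 ± 0.748 FPKM in the diabetic and 6.06 ± 1.08 FPKM in the control epithelium (SD, n = 3 each). *Sema3a*, the classical repellent of sensory axons, averaged 1.68 ± 0.289 FPKM in the diabetic and 1.58 ± 0.654 FPKM in the control epithelium (SD, n = 3 each). The intervals of these genes all included 0.

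Of the other semaphorins past the floor, *Sema3d*, *Sema4c* and *Sema3b* had log2 fold changes of -0.12, -0.19 and -0.19, and *Sema5a* had one of 0.04. *Sema7a*, a semaphorin with a lipid anchor that binds integrins, averaged 0.548 FPKM in the diabetic and 0.331 FPKM in the control epithelium and was kept through its diabetic mean alone. *Sema3e*, *Sema3g*, *Sema4f*, *Sema4g*, *Sema5b*, *Sema6a*, *Sema6b* and *Sema6c* lay below the floor. The highest value of any gene below the floor in any library was 0.644 FPKM, that of *Sema6b* in diabetic replicate 1.

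The plexins, which receive the semaphorin signal, had log2 fold changes between -0.04 and 0.15. *Plxnb2*, a plexin of epithelial cells and the most abundant of the 65 genes, was at 36.7, 38.3 and 31.7 FPKM in the diabetic libraries, against 36.6, 37.4 and 30.9 FPKM in the control libraries. The groups covered nearly the same range, with a log2 fold change of 0.02 (95% interval -0.25 to 0.30, adjusted p = 0.957 in limma). *Plxnb1*, the receptor of Sema4D, averaged 7.01 ± 0.591 FPKM in the diabetic and 7.27 ± 0.660 FPKM in the control epithelium, and *Plxna1* averaged 3.65 ± 0.139 FPKM in the diabetic and 3.60 ± 0.356 FPKM in the control epithelium (SD, n = 3 each). *Plxna2* was at 0.677, 0.867 and 1.10 FPKM in the diabetic libraries, against 0.816, 0.753 and 0.507 FPKM in the control libraries (log2 fold change 0.15, adjusted p = 0.677 in limma), and *Plxnd1* had a log2 fold change of -0.02. *Plxna3*, *Plxna4*, *Plxnb3* and *Plxnc1* lay below the floor. The co-receptor *Nrp2* was at 6.37, 6.74 and 6.35 FPKM in the diabetic libraries, against 7.18, 5.81 and 5.29 FPKM in the control libraries (log2 fold change 0.09), and *Nrp1* averaged 1.53 ± 0.197 FPKM in the diabetic and 1.71 ± 0.379 FPKM in the control epithelium (SD, n = 3 each).

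**Figure D3:**
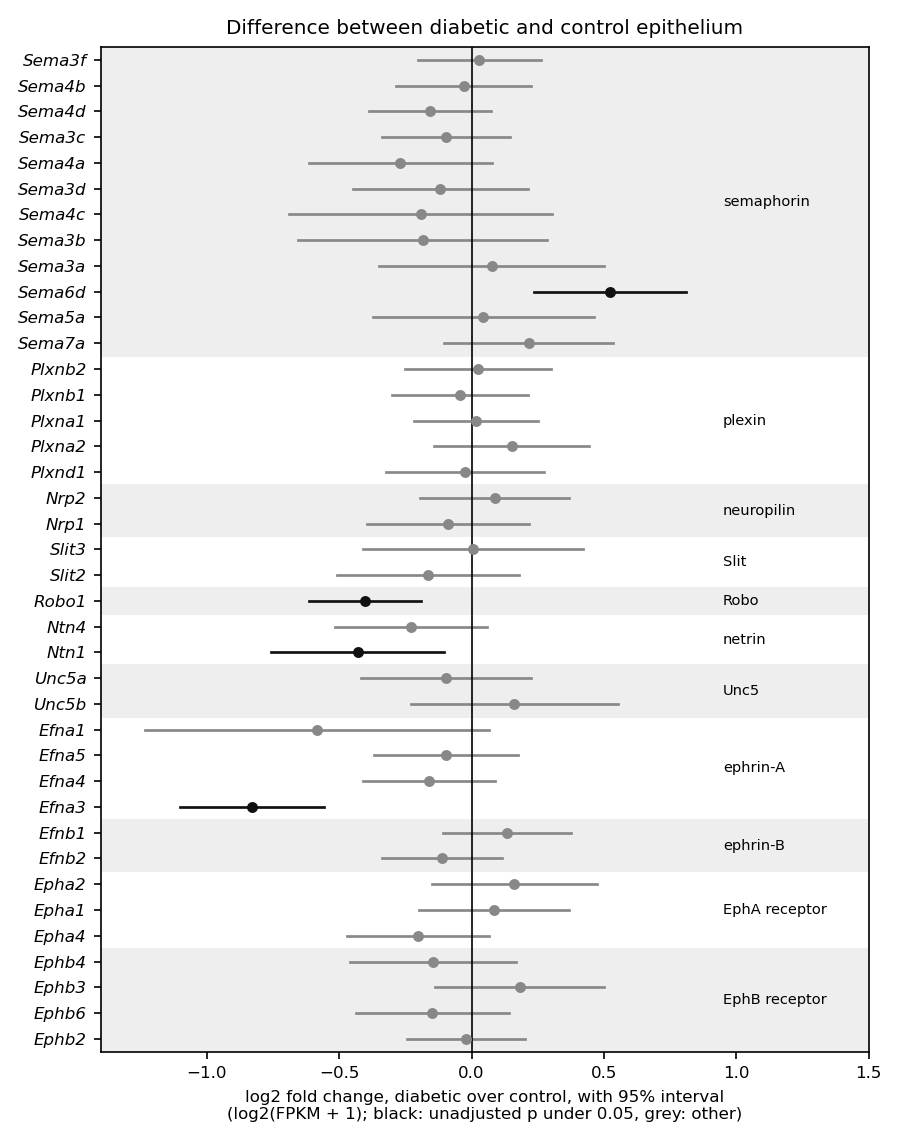
Log2 fold change (diabetic over control, on the log2(FPKM + 1) scale) of the 39 genes past the floor, with 95% intervals from limma, grouped by family. Black marks an unadjusted p under 0.05: *Sema6d* lies above 0 and *Robo1*, *Ntn1* and *Efna3* lie below 0, while the intervals of the 35 others include 0.

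Counted over the 39 genes, 15 had a higher and 24 a lower mean on the log2 scale in the diabetic epithelium, which is 61.5% lower, beside 61.0% of all genes tested. Their median log2 fold change was -0.09, beside -0.04 over all genes, and 34 of the 39 lay within 0.3 of 0. For the 22 ligands past the floor the median was -0.11, with 7 higher and 15 lower, and for the 17 receptors it was -0.02, with 8 higher and 9 lower. An unadjusted p under 0.05 in limma was reached by 4 of the 39 genes (10.3%), against 11.5% of all genes tested. By direction this was 1 higher gene (2.56%, against 4.61% of all) and 3 lower genes (7.69%, against 6.91% of all). Groups without overlap were found in 7 of the 39 (17.9%, against 17.6% of all), 2 of them higher (5.13%, against 6.68%) and 5 lower (12.8%, against 10.9%). The lower genes in these counts include *Robo1*, which was kept through its control mean alone. All of these shares lay near those of the whole table. Without control replicate 3, 7 of the 39 (17.9%) were at an unadjusted p under 0.05 in limma, against 11.4% of all genes tested in that fit. The split by direction also depended on scaling and on single libraries. With median-of-ratios scaling 18 of the 39 were higher and 21 lower, and the median log2 fold change over all genes tested was 0.0009. Without control replicate 1, 40 genes were tested, with 20 higher and 20 lower, and the median over all genes tested was -0.027.

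Genes that act with these ligands and receptors were taken from 4 lists with 80 genes, of which 69 were in the table and past the floor. Of these 22 had a higher and 47 a lower mean in the diabetic epithelium, while 61.0% of all genes tested had a lower mean. The median log2 fold change of the 69 was -0.05, beside -0.04 over all genes. None of the 69 passed the adjusted threshold or the thresholds of the study. At an unadjusted p under 0.05 in limma were 2 higher and 3 lower genes of the 69, beside the 11.5% of all genes above. The higher genes in this count include *Ablim3*, which was kept through its diabetic mean alone. Without control replicate 2 there were 3 such partner genes, beside 8.43% of all genes tested. Without control replicate 3 there were also 3, beside 11.4% of all genes tested. Among the partners of ephrins and Eph receptors, *Vav3*, a signalling protein downstream of Eph receptors, was at 6.55, 5.65 and 5.03 FPKM in the diabetic libraries, against 9.29, 7.93 and 7.40 FPKM in the control libraries. All diabetic values of *Vav3* were below the control values (log2 fold change -0.45, SE 0.127, adjusted p = 0.288 in limma). The tyrosine kinase gene *Abl2* of the same list had a log2 fold change of 0.44 (adjusted p = 0.487 in limma). *Adam10*, a protease that cuts ephrins from the cell surface and was picked here after its values were seen, was at 4.87, 16.7 and 13.04 FPKM in diabetic replicates 1, 2 and 3, against 18.8, 17.3 and 17.5 FPKM in control replicates 1, 2 and 3. The low value of *Adam10* was in the library in which *Efna1* was high, and a link between them was not tested. The log2 fold change of *Adam10* was -0.73 (SE 0.362, adjusted p = 0.491 in limma).

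Among the semaphorin partners, *Rap1a*, a small GTPase on which plexins act, was at 25.8, 30.2 and 29.3 FPKM in the diabetic libraries, against 36.0, 33.6 and 38.2 FPKM in the control libraries (log2 fold change -0.33, SE 0.104, adjusted p = 0.312 in limma). *Havcr2*, the immune receptor TIM-3, was at 1.83, 1.16 and 0.633 FPKM in the diabetic libraries, against 2.34, 2.21 and 1.83 FPKM in the control libraries (log2 fold change -0.53, adjusted p = 0.362 in limma). Both had diabetic values below all control values, *Havcr2* by a margin under 0.01 FPKM. In the netrin and Slit list, *Ablim3*, an actin-binding protein, was at 0.864, 0.833 and 1.85 FPKM in the diabetic libraries, against 0.542, 0.572 and 0.339 FPKM in the control libraries (log2 fold change 0.53, adjusted p = 0.344 in limma). Its control mean of 0.484 FPKM lay below the floor, so *Ablim3* was kept through its diabetic mean alone. A gene kept in this way had to be higher there, and its p is not support of the same kind as for the other genes. *Flrt2*, a ligand of Unc5 receptors, averaged 1.63 FPKM in the diabetic and 2.43 FPKM in the control epithelium, with overlapping groups. Of the shared cytoskeletal effectors, *Git1*, an adaptor at focal adhesions, had a log2 fold change of 0.25 (adjusted p = 0.422 in limma), and *Pak1*, a kinase activated by Rac and Cdc42, had one of -0.28 (adjusted p = 0.461 in limma).

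The libraries were checked for the cells that could carry these transcripts. Markers of corneal epithelium summed to 13189 to 15228 FPKM in the diabetic and 13770 to 14244 FPKM in the control libraries. Of these 7 genes, 2 had a higher and 5 a lower mean in the diabetic libraries. *Krt12* averaged 4964 FPKM in the diabetic and 3412 FPKM in the control libraries. *Krt14* averaged 4002 FPKM in the diabetic and 4816 FPKM in the control libraries. Neuronal markers summed to 7.56 to 12.1 FPKM in the diabetic and 8.24 to 11.2 FPKM in the control libraries, with the sensory neuron genes *Trpv1* and *Scn10a* at or near 0. Among these 13 genes, 10 had a higher and 3 a lower mean in the diabetic libraries, and 4 were past the floor. The cell bodies of the corneal nerves lie outside the cornea. The Schwann cell list summed to 49.8 to 58.1 FPKM in the diabetic and 31.7 to 53.4 FPKM in the control libraries, with *Sox10* and *Egr2* near 0. Among its 9 genes, 5 had a higher and 4 a lower mean in the diabetic libraries. The lowest sum was in control replicate 3, where *Pmp22* was at 8.25 FPKM, against 22.8 FPKM or more in every other library. Markers of stromal fibroblasts, 10 genes of which 8 had a lower mean in the diabetic libraries, summed to 350, 378 and 252 FPKM in diabetic replicates 1, 2 and 3, against 424, 391 and 413 FPKM in control replicates 1, 2 and 3. This stands beside the lower values of *Ntn1* and *Robo1*, and its part in them was not tested. Neutrophil markers, 9 of 9 in the table with a higher mean, summed to 723 to 1099 FPKM in the diabetic and 352 to 682 FPKM in the control libraries, erythrocyte markers (4 of 5 with a lower mean) to 9.90 to 22.2 FPKM in the diabetic and 40.9 to 107 FPKM in the control libraries, and lens markers (10 of 11 with a higher mean) to 53.2 to 357 FPKM in the diabetic and 27.7 to 43.0 FPKM in the control libraries. Their part in the values of *Efna3*, *Efna1* and *Sema6d* was not tested.

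Of the 5 genes plotted with each library left out in turn, *Efna1* moved most. For *Sema6d* the log2 fold change stayed between 0.44 and 0.61, at an unadjusted p under 0.05 in limma throughout. For *Robo1*, kept through its control values alone, it lay between -0.43 and -0.39, which is given as a description. For *Ntn1* it lay between -0.53 and -0.31, with the losses given above, and for *Efna1* between -0.94 and -0.39.

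**Figure D4:**
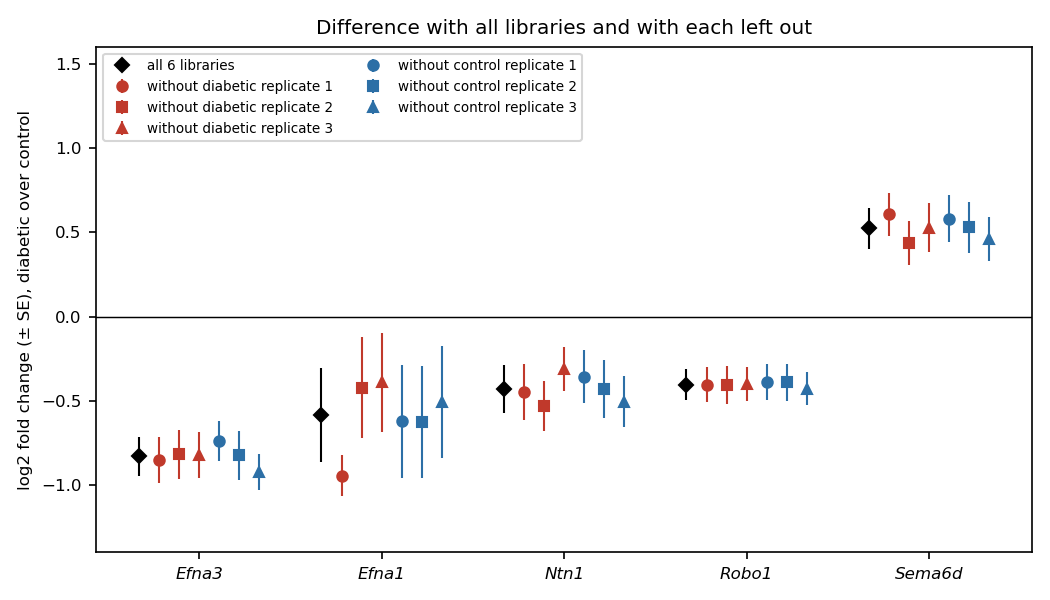
Log2 fold change (diabetic over control, with SE bars from limma) of *Efna3*, *Efna1*, *Ntn1*, *Robo1* and *Sema6d* with all 6 libraries (black) and without each diabetic (red) or control (blue) replicate in turn. *Efna1* moves to -0.94 without diabetic replicate 1, while *Efna3* stays between -0.92 and -0.74.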

How the data were processed

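Polyadenylated RNA of 3 diabetic and 3 control pools was sequenced with a stranded kit (KAPA) on an Illumina NovaSeq. Per the submitters' processing notes, the aligner was HISAT2, the build GRCm38 and the quantifier StringTie, with no versions given. The deposited values are FPKM as the authors computed them, for 14968 protein-coding genes. They are not counts, so the depth per library is unknown and no counting interval is given.

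Genes with a mean of at least 0.5 FPKM in 1 or both groups (12149) entered limma 3.58.1, run in R 4.3.3, on log2(FPKM + 1), with group as the only term and an intensity trend, two-sided, with Benjamini-Hochberg adjustment over all of them at 0.05. Residual degrees of freedom were 4 and prior ones 3.65, and the script was tested on simulated data. No exact permutation test was made, since its smallest p with 3 libraries a group is 0.1.

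The genes, lists and the naming rule (per family the most abundant gene and that with the smallest p, every gene at an unadjusted p under 0.05, and 2 genes per partner list) were chosen with earlier results of these data known. Alternatives were other pseudocounts, filters, scalings and variance models, library weights, a replicate block and leaving out each library.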

Additional observations from a re-analysis of the deposited data

How the results depend on the processing

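With 0.1 FPKM added in place of 1, 4 of the 39 genes passed the thresholds of the study (*Efna3*, *Ntn1*, *Robo1* and *Sema6d*), against 1 with 1 FPKM added, and 584 against 302 genes of the whole table did. With 0.5 FPKM added, with rescaling to TPM and with library weights the count was 3 of the 39, and 447, 497 and 357 of the whole table in that order. Library weights also gave 1 gene past the adjusted threshold (*Efna3*, adjusted p = 0.0188 in limma), 7 genes at an unadjusted p under 0.05 and 8 partner genes at that level, against 0, 4 and 5 without weights. Weights raised the calls of the whole table too, to 129 past the adjusted threshold, against 8, and to 17.9% at an unadjusted p under 0.05, the share of the 39 genes as well. With each library left out in turn, the numbers were 0 to 1 past the adjusted threshold, 1 to 3 past the thresholds of the study, 3 to 7 at an unadjusted p under 0.05 and 3 to 7 partner genes, and the median log2 fold change was -0.14 to -0.01. *Efna3* was at an unadjusted p under 0.05 and past 1.5-fold under all 17 alternatives. Over the sets that leave out 1 library, the direction turned only for 5 named genes with small differences: the log2 fold change ranged from -0.062 to 0.10 for *Plxnb2*, -0.0095 to 0.092 for *Sema3f*, -0.20 to 0.11 for *Slit3*, -0.21 to 0.0029 for *Unc5a* and -0.0072 to 0.26 for *Unc5b*. *Plxnb2* was also at -0.0013 and -0.031, and *Slit3* at -0.061, in other such sets, and *Slit3* at -0.038 with library weights. The causes were not tested. In 307 cases a named gene under an alternative kept its direction and its side of the unadjusted threshold. *Efna1* passed that threshold in 2 alternatives and *Ntn4* in 1, and *Ntn1* missed it in 2.

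The labels give replicate numbers 1 to 3 in both groups. The paper describes its screening as done on paired samples, without naming pairs of diabetic and control pools. Deviations of same-numbered libraries correlated at -0.20, 0.06 and -0.09 over genes. With 3 libraries a group these correlations cannot decide whether the libraries were paired. A fit with the number as a replicate block gave 0, 1 and 4 genes at the 3 thresholds, 5 partner genes and a median of -0.09, as without the block. Low values limit *Robo1* and *Sema6d*, whose fold changes depend on the pseudocount.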
